A study of Mus musculus with 14 samples.

Results

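The core genes of transforming growth factor beta (TGF-beta) signalling were followed in lung and in gastrocnemius, a calf muscle, of mice with and without a lung tumour. The 10 genes were fixed by name: the ligands Tgfb1, Tgfb2 and Tgfb3, the receptors Tgfbr1, Tgfbr2 and Tgfbr3, the signal transducers Smad2, Smad3 and Smad4, and Tgfbi, a matrix gene named for its induction by TGF-beta. Each symbol matched 1 of the 55416 Ensembl gene identifiers listed per library, and all 10 had enough counts to be tested in both tissues. In tumour-bearing lung, 7 of the 10 passed the test, where 59.7% of all genes did: Tgfbr3, Tgfbr2, Tgfb2 and Tgfb3 fell, while Smad3, Tgfbr1 and Smad4 rose. The calls of Tgfbr1 and Smad4 were lost without single control libraries and on the log2(TPM + 1) scale. In tumour-bearing gastrocnemius, none of the 10 passed, where 15.3% of all genes did.

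The mice were males of the strain C57BL/6 (C57BL/6NCrlOri), aged 6 to 8 weeks. In the tumour model, 5000000 KrasIKKaL cells were injected intratracheally. Library titles give 3 control (CON) and 3 tumour-bearing (TB) gastrocnemius libraries, and 3 control and 5 tumour-bearing lung libraries; CON and TB are read here as control and tumour-bearing. The sources used here do not give what the controls received or how long after injection tissue was taken. No genotype or further treatment is named for any group, and all groups share the strain, sex and age range. The model rests on a single implanted line, and in tumour-bearing lung the RNA of the injected cells and of the host tissue was sequenced together. Whether the replicates are different mice is not stated in the labels, and the p-values therefore cover only the variation among these libraries, part of which may be technical. The series asked about targets for cachexia, the wasting of muscle in cancer, and for immune-related adverse events of muscle.

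TGF-beta ligands are secreted in a latent form, held in the matrix or on cell surfaces, and released by integrins and proteases. The active ligand binds the type II receptor (Tgfbr2), which phosphorylates the type I receptor (Tgfbr1); Tgfbr3, or betaglycan, is a co-receptor that presents ligand, above all TGF-beta 2. The type I receptor phosphorylates Smad2 and Smad3, which enter the nucleus with Smad4 and act on target genes such as collagens. In lung the pathway is known for its part in matrix deposition and in the growth control of epithelium, and in muscle Smad2 and Smad3 also carry the signal of myostatin, which limits muscle mass.

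The promoters of a ligand, a receptor and a Smad that changed in lung are shown. They were taken from the genes with a promoter window, which was lacking for Tgfb3, Tgfbr3, Smad2 and Smad4. Tgfbr3, with the largest lung change of the 10 genes, is therefore not shown. Windows run from 250 bases before to 50 bases after the start of the gene and come from RefSeq in build GRCm38.p6, which held windows for 6 of the 10 genes (7 windows, Tgfbr1 having 2); the sources used here do not name the build behind the counts. They lie at chr1:186705940-186706239 on the minus strand for Tgfb2, at chr9:116175314-116175613 on the minus strand for Tgfbr2 and at chr9:63757945-63758244 on the minus strand for Smad3. Capitals mark matches, on either strand, to CAGAC, the core letters of the Smad-binding element, and to GGGCGG, the GC box.
Tgfb2: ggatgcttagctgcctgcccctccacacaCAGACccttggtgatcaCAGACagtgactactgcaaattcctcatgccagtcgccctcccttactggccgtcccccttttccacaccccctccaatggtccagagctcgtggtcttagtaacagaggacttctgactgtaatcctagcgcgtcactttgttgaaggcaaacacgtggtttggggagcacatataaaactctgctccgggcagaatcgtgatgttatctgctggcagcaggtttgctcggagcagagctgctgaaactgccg
Tgfbr2: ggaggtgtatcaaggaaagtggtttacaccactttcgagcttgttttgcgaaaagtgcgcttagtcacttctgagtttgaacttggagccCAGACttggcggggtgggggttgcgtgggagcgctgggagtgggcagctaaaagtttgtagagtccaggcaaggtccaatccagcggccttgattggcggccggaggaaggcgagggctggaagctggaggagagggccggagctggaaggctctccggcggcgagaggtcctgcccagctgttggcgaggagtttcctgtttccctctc
Smad3: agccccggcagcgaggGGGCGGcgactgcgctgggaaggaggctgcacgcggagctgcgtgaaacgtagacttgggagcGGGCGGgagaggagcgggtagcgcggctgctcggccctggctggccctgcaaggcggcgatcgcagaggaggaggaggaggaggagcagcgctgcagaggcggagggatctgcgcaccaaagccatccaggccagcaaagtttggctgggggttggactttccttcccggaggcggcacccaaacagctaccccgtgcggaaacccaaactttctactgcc
The Tgfb2 window held CAGAC at 2 places and the Tgfbr2 window at 1, and neither held GGGCGG. The Smad3 window held GGGCGG at 2 places and no CAGAC. Over all windows CAGAC was present in 49.6% and GGGCGG in 35.7% of the 32851 RefSeq windows of this length, so both are common letters. Also searched was TGANTCA, the site of AP-1 factors, which was present in 7.81% of all windows and in none of the 7. GC content was 54.3% in the Tgfb2 window, 59.0% in the Tgfbr2 window and 67.7% in the Smad3 window, against a median of 52.7% over all windows. These matches describe the letters in these windows and say nothing of whether a factor binds there.

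Libraries held 32476212 to 44169437 counts in gastrocnemius and 47947379 to 61087330 in lung. At these depths a count of 0 allows up to 3 counts, or 0.0491 to 0.0924 counts-per-million (CPM), which covers counting error only; every library was above this for all 10 genes. Tissue labels were checked on defining markers. Sftpc, the surfactant protein of alveolar cells, was listed at 0 in every muscle library and at 31000 to 37000 transcripts-per-million (TPM) in control lung. In tumour-bearing lung it was at 4.39 to 873 TPM, so those libraries held far less of this defining lung transcript. Acta1, the actin of skeletal muscle fibres, was at 8430 to 22900 TPM in muscle and at most 0.42 TPM in lung. Marker lists moved with tumour in lung. Their summed TPM went from 40700 to 47500 in control to 13.9 to 1380 in tumour-bearing lung for alveolar epithelium (7 of 7 markers fell), from 1790 to 1860 down to 88.9 to 109 for endothelium (8 of 8 fell), from 575 to 661 down to 37.4 to 158 for fibroblasts (7 of 10 fell) and from 6070 to 6520 down to 199 to 872 for macrophages and monocytes (3 of 9 fell and 1 rose). Epithelial tumour markers such as Krt8 and Mki67 went from 972 to 998 up to 7660 to 12400 (7 of 7 rose). No marker of these 5 lists was at 0 in all libraries of either lung group. Of the other lists in lung, 5 of 7 smooth muscle and pericyte markers fell and 1 rose, 4 of 6 platelet, 2 of 6 T cell, 4 of 4 tested muscle fibre and 5 of 5 haemoglobin genes fell, 2 of 5 neutrophil markers fell and 1 rose, and 1 of 7 mitochondrial genes rose. In muscle, 7 of 9 tested fibroblast, 2 of 7 smooth muscle and pericyte, 1 of 8 endothelial, 1 of 2 tested T cell, 1 of 3 tested platelet and 1 of 3 tested alveolar markers fell, 3 of 3 tested neutrophil and 1 of 8 tested macrophage markers rose, and no muscle fibre, epithelial tumour, haemoglobin or mitochondrial gene passed. In a bulk sample, fewer cells of a type and less RNA per cell cannot be told apart.

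Levels between genes were compared in TPM, which is per transcript length. In control lung the type II receptor Tgfbr2 led, at 75.7 ± 2.93 TPM (SD, n = 3), ahead of Tgfb1 at 57.9 ± 4.44, Smad4 at 49.1 ± 3.86 and Tgfbi at 40.6 ± 0.854. Tgfbr3 followed at 30.5 ± 0.408 TPM, then Smad2 at 23.0, Smad3 at 18.7, Tgfbr1 at 16.5, Tgfb3 at 13.2 and Tgfb2 at 6.79. Of the neighbours in this order, Tgfb1 and Smad4 overlapped between libraries and the others did not. In tumour-bearing lung the order differed. Tgfb1 led at 58.1 ± 17.6 TPM (SD, n = 5), followed by Smad4 at 47.9 ± 12.1 and Smad3 at 34.3 ± 3.71. Smad2 (22.0), Tgfbi (21.5), Tgfbr1 (17.5) and Tgfbr2 (13.5) formed a middle group in which each gene overlapped the next in TPM. At the low end Tgfb3 was at 3.87, Tgfb2 at 1.51 and Tgfbr3 at 1.24 TPM, and Tgfb2 and Tgfbr3 overlapped.

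In gastrocnemius all 10 genes were low, between a mean of 1.12 TPM for Smad2 and 6.06 TPM for Smad3 in control muscle (n = 3), and every neighbour in the order overlapped the next. Within each control library, however, Smad3, Tgfb3, Tgfbi and Smad4 kept that order, as did Tgfb2, Tgfbr3, Tgfbr2 and Smad2. Smad4 and Tgfbr1, Tgfbr1 and Tgfb1, and Tgfb1 and Tgfb2 changed places between libraries. Tumour-bearing muscle ran from 2.68 TPM for Tgfb2 to 13.9 ± 15.9 TPM for Smad4 (SD, n = 3), again with every neighbour overlapping. The SD of Smad4 there exceeds its mean because 1 library, tumour-bearing muscle 1, was at 32.2 TPM and the lowest was at 3.51. Tumour-bearing muscle 1 also had a shorter estimated Smad4 length, 1969 bases against 3287 to 3384 in control muscle, which raises TPM at a given count.

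The make-up of each class differed by tissue and, in lung, by tumour. Tgfb1 made up 69.0% to 77.0% of the summed TPM of the 3 ligands in control lung and 87.9% to 93.6% in tumour-bearing lung, so the groups did not overlap. In control muscle Tgfb3 was the main ligand, at 45.4% to 49.0%, and in tumour-bearing muscle it held 37.7% to 53.3%. Among the receptors, Tgfbr2 made up 60.8% to 63.0% in control lung and 37.0% to 52.5% in tumour-bearing lung. Tgfbr3 went from 24.7% to 25.0% in control lung to 2.27% to 5.75% in tumour-bearing lung, and Tgfbr1 from 12.3% to 14.3% up to 43.2% to 58.4%. Among the Smads, Smad3 made up 19.4% to 21.3% in control lung and 30.5% to 39.1% in tumour-bearing lung. In muscle the Smad3 share was 56.1% to 61.0% in the controls and 3.87%, 47.9% and 17.7% in tumour-bearing libraries 1, 2 and 3. These shares depend on the estimated transcript lengths, since TPM is per length. In tumour-bearing library 1 the lengths were 1846 bases for Smad2 and 1969 for Smad4. In control muscle they were 3639 to 4011 and 3287 to 3384 bases. Shares within a class are a description and were not tested.

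**Figure D1:**
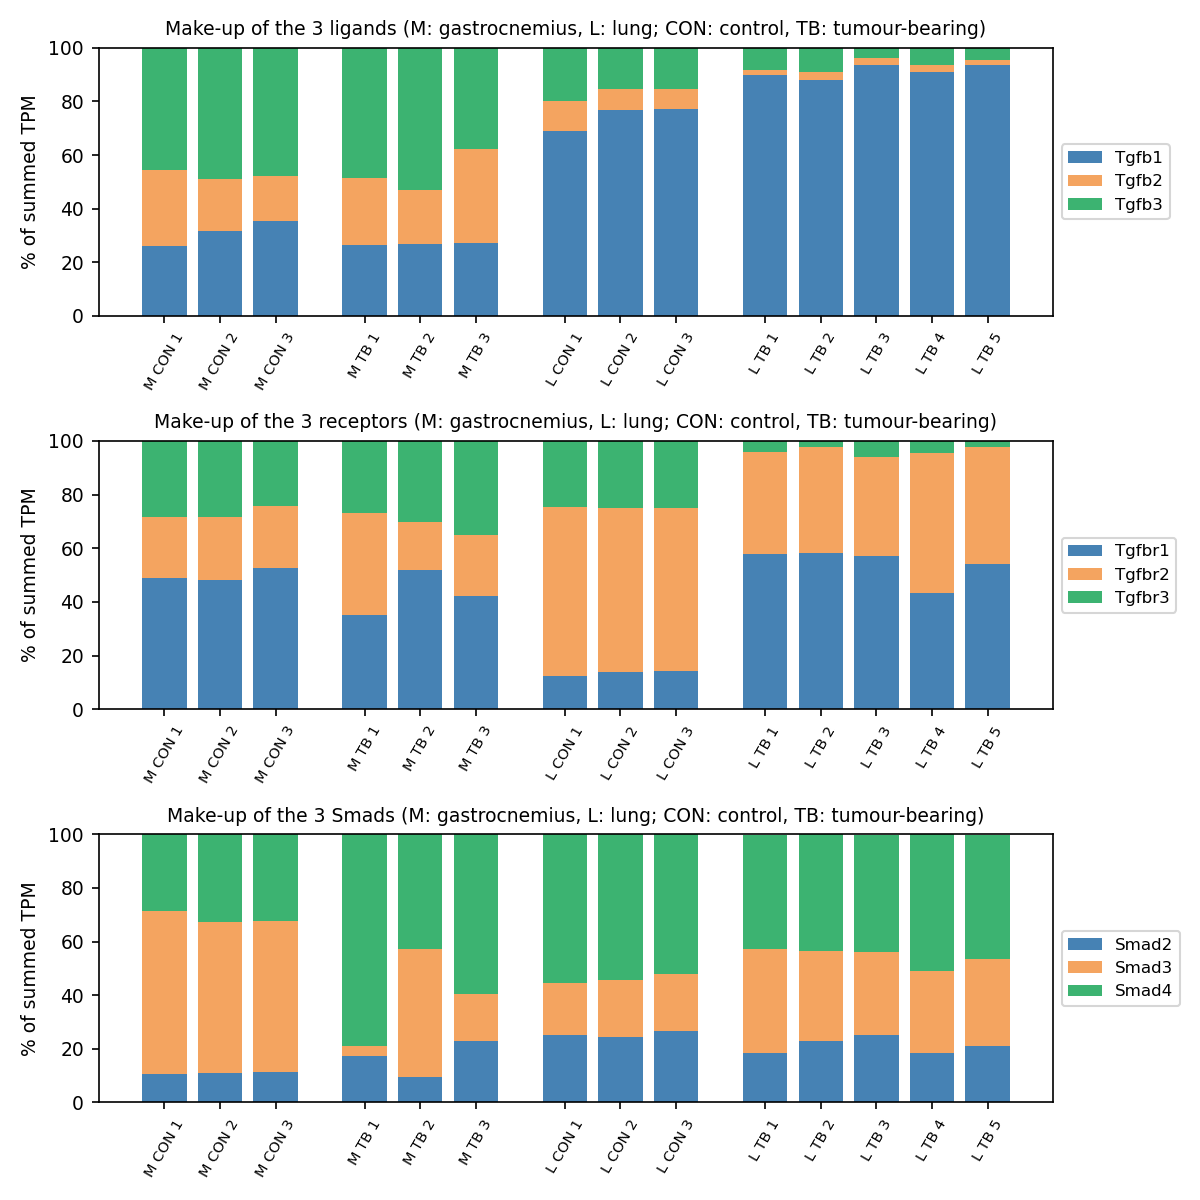
Stacked bars give each gene's percent of the summed TPM of its class in each of the 14 libraries (M gastrocnemius, L lung, CON control, TB tumour-bearing), for ligands, receptors and Smads. In lung, Tgfb1 takes 69.0% to 77.0% of the ligands in controls and 87.9% to 93.6% in tumour-bearing libraries, and the Tgfbr3 part shrinks from about 24.9% (median) to 4.01%.

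The ligands in lung were compared between tumour-bearing and control libraries in CPM, scaled by the trimmed mean of M-values (TMM). Across all genes tested in lung, 59.7% passed at an adjusted p below 0.05 (30.4% higher and 29.3% lower), so a share of 7 in 10 is near this background and is not in itself a result about these genes. Tgfb2 was at 21, 19.3 and 18.7 CPM in control lung 1, 2 and 3 and at 3.58, 8.65, 8.37, 5.55 and 7.29 CPM in tumour-bearing lung 1 to 5. Every tumour-bearing library was below every control library, and Tgfb2 fell 2.94-fold (log2 change -1.56, SE 0.29, adjusted p = 0.0014). Tgfb3 was at 32.9, 27.9 and 26.8 CPM in the controls and at 10.5, 17.0, 8.44, 9.81 and 12.6 CPM in tumour-bearing lung. It too fell without overlap, 2.50-fold (log2 change -1.32, SE 0.24, adjusted p = 0.00122). Tgfb1, the ligand of immune and many epithelial cells, was at 69.7, 83.6 and 80.1 CPM in control lung and at 69.2, 98.7, 121, 84.0 and 156 CPM in tumour-bearing lung. The groups overlapped and Tgfb1 did not pass (log2 change 0.44, SE 0.26, adjusted p = 0.162). Without tumour-bearing lung 1, the lowest of the 5, it passed at a log2 change of 0.58 (adjusted p = 0.0488); on the log2(TPM + 1) scale the difference was -0.04. Tgfb2 and Tgfb3 are ligands of mesenchymal cells among others, and the fibroblast, smooth muscle and endothelial markers fell in the same libraries; their part in the result was not tested.

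Tgfbr3 and Tgfbr2 changed most of the 10 genes in lung. Tgfbr3, the co-receptor betaglycan, was at 122, 125 and 125 CPM in control lung and at 6.15, 4.49, 11.0, 7.91 and 4.06 CPM in tumour-bearing lung. It was 18.4-fold lower (log2 change -4.20, SE 0.32, adjusted p = 1.16e-05), the largest change of the 10 genes in either tissue. Tgfbr2, the ligand-binding type II receptor, was at 274, 277 and 280 CPM in the controls and at 75.5, 85.6, 80.9, 106 and 80.9 CPM in tumour-bearing lung. The fall was 3.23-fold in counts (log2 change -1.69, SE 0.14, adjusted p = 2.07e-05), and libraries of a group lay close together. On the log2(TPM + 1) scale, where the median of all genes in lung moved from 0.07 to -0.23, the Tgfbr2 difference was -2.41. Tgfbr1, the type I receptor that phosphorylates Smad2 and Smad3, went the other way. It was at 55.4, 61.3 and 65.6 CPM in control lung and at 84.6, 99.1, 104, 72.2 and 89.0 CPM in tumour-bearing lung, a rise of 1.48-fold without overlap (log2 change 0.56, SE 0.15, adjusted p = 0.0116). That call was lost without control lung 1 (adjusted p = 0.0576) and on the log2(TPM + 1) scale (0.06, adjusted p = 0.748). Endothelial markers, 8 of 8 lower, and fibroblast markers, 7 of 10 lower, moved with Tgfbr2 and Tgfbr3; their part in the result was not tested. Reads of the predicted gene Gm43422, which overlaps Tgfbr3 on the same strand over 297 bases, reached at most 9.23 counts in a library.

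Among the Smads in lung, Smad3 changed most. It was at 60.1, 63.1 and 65.6 CPM in control lung and at 146, 139, 139, 187 and 181 CPM in tumour-bearing lung. All 5 tumour-bearing libraries were above every control, and Smad3 rose 2.51-fold (log2 change 1.33, SE 0.16, adjusted p = 0.000135). Smad4, the common partner of the receptor-activated Smads, was at 69.8, 72.1 and 72.3 CPM in the controls and at 93.0, 98.0, 88.3, 94.5 and 120 CPM in tumour-bearing lung. The rise was 1.38-fold without overlap (log2 change 0.47, SE 0.14, adjusted p = 0.0169). It did not survive the loss of any 1 control library (adjusted p from 0.0567 to 0.0672 without control lung 1, 2 or 3) the fit of all 14 libraries together (adjusted p = 0.231) or the replicate block (adjusted p = 0.0792), and turned to -0.06 on the log2(TPM + 1) scale. Smad2, which shares its receptor with Smad3, was at 45.0, 44.0 and 45.0 CPM in control lung and at 48.1, 51.1, 67.2, 57.0 and 63.6 CPM in tumour-bearing lung. The groups did not overlap but Smad2 missed the threshold (log2 change 0.36, SE 0.15, adjusted p = 0.0625). It passed without tumour-bearing lung 1 (0.44, adjusted p = 0.0263) or 2 (0.43, adjusted p = 0.0314), and on the log2(TPM + 1) scale the difference was -0.08. In all, 8 of the 10 genes had lung groups that did not overlap in CPM, against 63.0% of all genes tested. The epithelial tumour markers, 7 of 7 higher, moved with Smad3 and Smad4; their part in the result was not tested.

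Tgfbi, which encodes a secreted matrix protein that binds integrins, varied widely between tumour-bearing lungs. It was at 66.9, 72.6 and 72.0 CPM in control lung and at 30.3, 67.7, 78.9, 45.0 and 27.7 CPM in tumour-bearing lung. The groups overlapped, since tumour-bearing lung 2 and 3 lay at control levels and the other 3 below, and Tgfbi did not pass (log2 change -0.50, SE 0.34, adjusted p = 0.231). On the log2(TPM + 1) scale it passed as lower (-1.02, adjusted p = 0.0355). Summed macrophage and monocyte markers, a cell type known to express Tgfbi, were at 681, 530, 872, 484 and 199 TPM in tumour-bearing lung 1 to 5, and fibroblast markers at 60.2, 158, 51.8, 37.4 and 52.5 TPM; their part in the result was not tested.

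**Figure D2:**
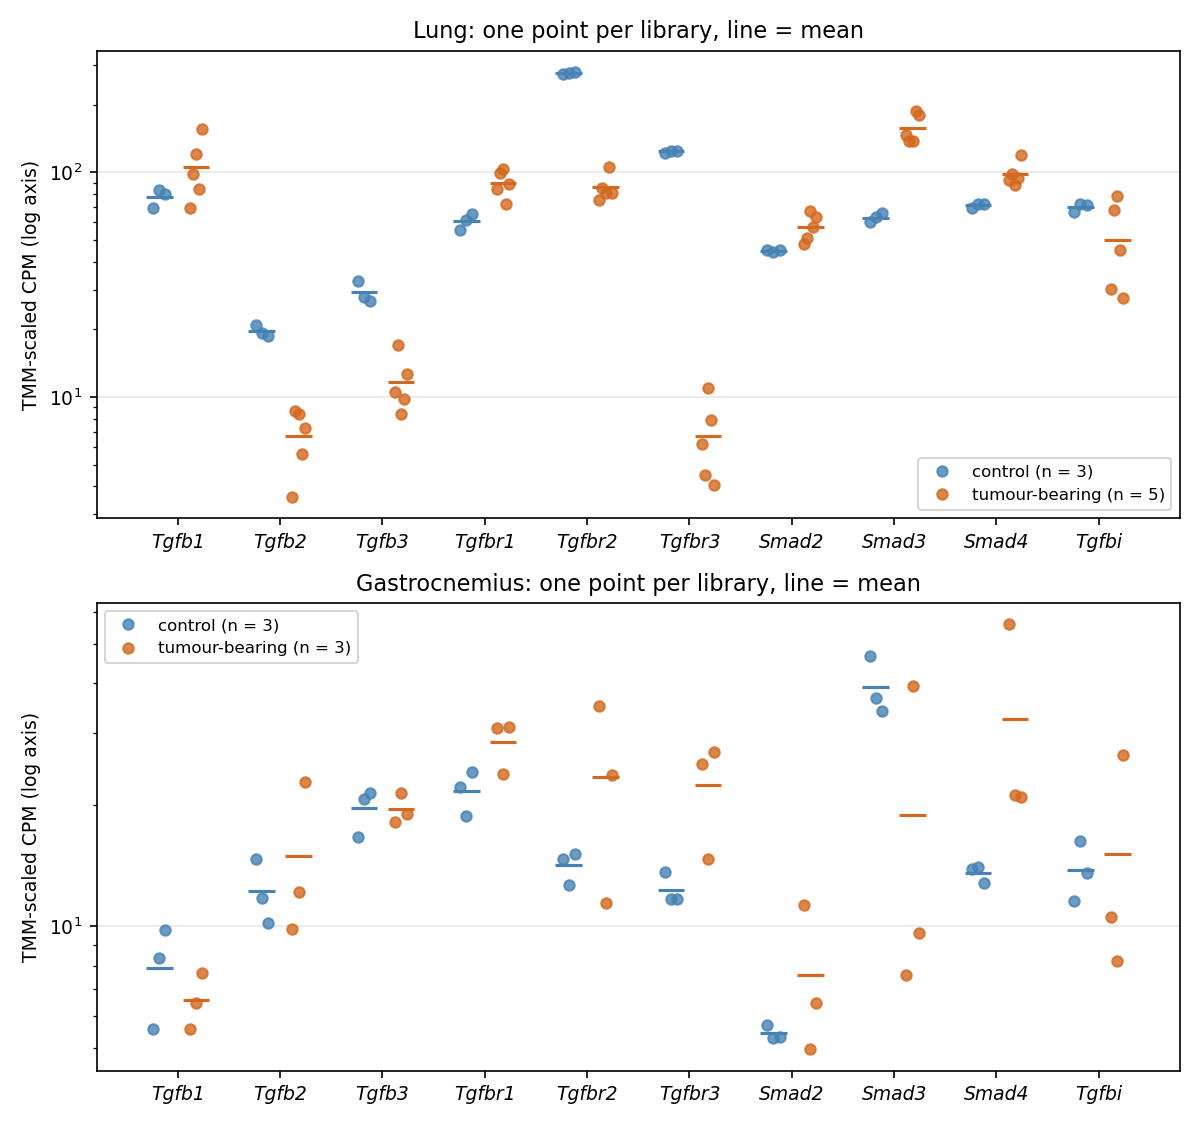
Points give TMM-scaled CPM (log axis) of each of the 10 genes in each library, with a line at the group mean, for lung (3 control, 5 tumour-bearing) and gastrocnemius (3 and 3). In lung, Tgfbr3 drops from 122 to 125 CPM to 4.06 to 11.0 CPM and Smad3 lies higher in all 5 tumour-bearing libraries; in gastrocnemius the tumour-bearing points of Smad3 and Smad4 are spread widely.

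In gastrocnemius, which was not the site of injection, none of the 10 genes passed at an adjusted p below 0.05 in edgeR's quasi-likelihood test, against 15.3% of all genes tested (8.53% higher and 6.75% lower). At an unadjusted p below 0.05 there were 2, Smad4 and Tgfbr3, against 35.7% of all genes. These were also the 2 whose groups did not overlap in CPM, which held for 43.1% of all genes. DESeq2 called 2 genes, Smad4 and Tgfbr3, where it called 2093 higher and 1564 lower of all 14373 genes. With limma-voom 0 passed, where 1001 of all genes were called higher and 1110 lower.

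Of the 10 genes in muscle, Smad3 had the largest SE of its log2 difference. Smad4 was at 13.8, 14 and 12.8 CPM in control muscle and at 55.8, 21.1 and 20.9 CPM in tumour-bearing muscle. All 3 tumour-bearing libraries were above the controls, with library 1 far above the other two (log2 difference 1.27, SE 0.40, adjusted p = 0.0612). Smad3 was at 46.5, 36.7 and 34.1 CPM in control muscle and at 7.58, 39.3 and 9.65 CPM in tumour-bearing muscle. Libraries 1 and 3 were far below the controls, while library 2 lay within their range, and Smad3 did not pass (log2 difference -1.05, SE 0.57, adjusted p = 0.209). Smad2 was at 5.72, 5.31 and 5.32 CPM in the controls and at 11.3, 4.97 and 6.49 CPM in tumour-bearing muscle (log2 difference 0.48, SE 0.34, adjusted p = 0.338), with library 1 well above the other two. With all 6 libraries kept, Smad4 passed with DESeq2 (adjusted p = 0.0162), with no filter on low counts (0.00266), in the fit of all 14 libraries (0.0172) and with the replicate block (0.0443), and Smad3 with no filter (0.0295). Smad2 passed in none of the alternatives. Single libraries also moved these values. Without tumour-bearing muscle 1 the Smad4 difference was 0.65. Without tumour-bearing muscle 2, 4 of the 10 passed: Smad3 at -2.16 (adjusted p = 0.00409), Smad4 at 1.53 (0.0274), Tgfbr3 at 1.11 (0.0136) and Tgfbr2 at 1.08 (0.0231). All genes moved with that choice too, to 2447 higher and 2066 lower calls from 1226 and 970. Without any other single library, 0 of the 10 passed. Calls over all genes then ran from 33 higher and 73 lower without control muscle 3 to 885 and 547 without tumour-bearing muscle 1. Summed fibroblast markers were at 20.4, 32.7 and 18.1 TPM in tumour-bearing muscle 1, 2 and 3 and at 90.7 to 147 TPM in control muscle (7 of 9 tested markers fell, and Tcf21 was at 0 in all tumour-bearing libraries), and haemoglobin genes were at 2120, 971 and 10500 TPM in tumour-bearing muscle and 777 to 916 TPM in control muscle; their part in the result was not tested.

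The receptors in muscle lay higher on average in tumour-bearing libraries but did not pass. Tgfbr3 was at 13.7, 11.7 and 11.7 CPM in control muscle and at 25.2, 14.7 and 27.1 CPM in tumour-bearing muscle, without overlap (log2 difference 0.86, SE 0.30, adjusted p = 0.0778). Tgfbr2 was at 14.7, 12.7 and 15.1 CPM in the controls and at 35.0, 11.4 and 23.7 CPM in tumour-bearing muscle. Its libraries 1 and 3 were above the controls and library 2 below them (log2 difference 0.72, SE 0.38, adjusted p = 0.205). Tgfbr1 was at 22.1, 18.8 and 24.1 CPM against 30.9, 23.8 and 31.0 CPM, with overlap (0.40, SE 0.25, adjusted p = 0.279).

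The muscle ligands and Tgfbi differed by less than their spread. Tgfb1 was at 5.57 to 9.81 CPM in control and 5.58 to 7.68 CPM in tumour-bearing muscle (log2 difference -0.27, SE 0.31, adjusted p = 0.552). Tgfb2 was at 10.2 to 14.7 and 9.84 to 22.8 CPM (0.28, SE 0.35, adjusted p = 0.583). Tgfb3 was at 16.7 to 21.3 and 18.1 to 21.4 CPM (-0.01, SE 0.25, adjusted p = 0.989). Each of the 3 ligands overlapped between groups. Tgfbi was at 11.6 to 16.2 and 8.23 to 26.6 CPM (0.13, SE 0.43, adjusted p = 0.847), with tumour-bearing muscle 3 the highest; without that library the difference was -0.54 (adjusted p = 0.223).

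**Figure D3:**
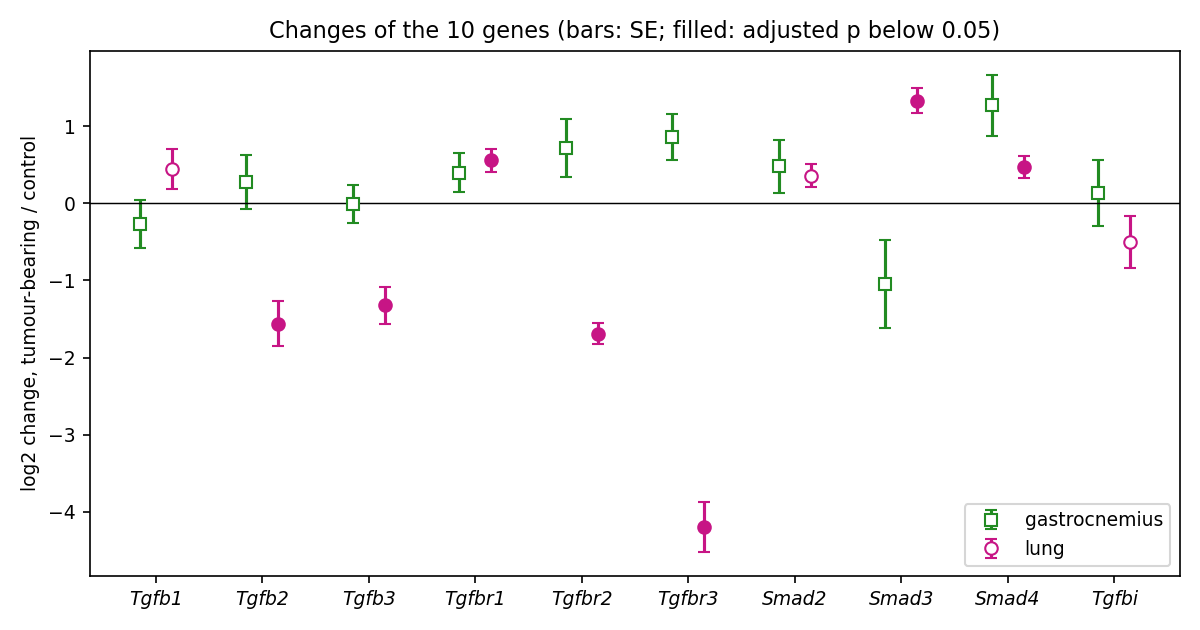
Log2 changes of the 10 genes, tumour-bearing over control, with SE bars, in gastrocnemius (squares) and lung (circles); filled symbols passed at an adjusted p below 0.05. Tgfbr3 at -4.20 and Tgfbr2 at -1.69 are the lowest lung values, Smad3 at 1.33 the highest, and no gastrocnemius symbol is filled. On the log2(TPM + 1) scale the lung differences of Tgfb1, Smad2 and Smad4 lie just below 0.

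The difference between the tissues was tested itself, as the tissue-by-tumour interaction over all 14 libraries. It passed for 5 of the 10 genes, against 35.6% of all genes tested (16.6% with a higher and 19.0% with a lower change in lung). For 4 of the 5 the change in lung was lower than in muscle: Tgfbr3 by a log2 difference of -5.04 (SE 0.46, adjusted p = 3.53e-06), Tgfbr2 by -2.40 (SE 0.38, adjusted p = 0.000303), Tgfb2 by -1.82 (SE 0.46, adjusted p = 0.00737) and Tgfb3 by -1.33 (SE 0.33, adjusted p = 0.00642). Smad3 differed the other way, by 2.34 (SE 0.63, adjusted p = 0.0105), with a rise in lung and lower values in 2 of 3 tumour-bearing muscle libraries. These 5 genes passed in every alternative run for the interaction, each library left out in turn included. The Smad3 difference depended on single muscle libraries in size, and ranged from 1.95 without tumour-bearing muscle 1 to 3.55 without tumour-bearing muscle 2. Smad4 joined them without tumour-bearing muscle 3 (-1.06, adjusted p = 0.0427). For Tgfb1, Tgfbr1, Smad2, Smad4 and Tgfbi a difference between the tissues was not detected in the fit of all libraries, with values from -0.80 (SE 0.40) for Smad4 to 0.70 (SE 0.38) for Tgfb1.

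Control lung and control muscle were also set against each other. All 10 genes differed at an adjusted p below 0.05, against 81.3% of all genes tested (44.9% higher and 36.5% lower in lung). Relative to TMM-scaled totals, Tgfbr2 was 5.69-fold higher in lung (log2 difference 2.51, SE 0.11, adjusted p = 2.86e-07), Tgfbr3 2.92-fold and Tgfb1 2.89-fold higher, and Smad2 (1.25), Smad4 (0.62) and Tgfbi (0.57) were higher on the log2 scale too. Tgfb2 (-1.10), Tgfb3 (-1.20), Smad3 (-1.10) and Tgfbr1 (-0.29) were lower in lung on that scale, but turned to higher on the log2(TPM + 1) scale, at 1.39, 1.42, 1.57 and 2.23. That scale moved the median of all genes from 0.25 to 1.66, and its calls from 8097 higher and 6581 lower to 15092 higher and 1287 lower. The direction between tissues of these 4 genes therefore depends on the scaling, while the other 6 were higher in lung on both scales. The call for Tgfbr1, whose groups overlapped in CPM, was lost without any 1 of the 3 control lung libraries or of control muscle 1 or 3 (adjusted p from 0.0696 to 0.18). With all libraries kept, it was also lost with upper-quartile scaling (adjusted p = 0.156), no filter (0.511) and the replicate block (0.075).

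RSEM also reports, per gene, a mean transcript length weighted by the share of each form. The Tgfbr2 pattern in this readout was noticed after the values were seen and is given as a description. GENCODE M21 (GRCm38) lists 2 Tgfbr2 transcripts, of 3476 and 8092 bases. The longer one has 75 more coding bases, in an additional exon, and 4636 further bases past the coding end. The longer form made up 40.4%, 44.4% and 45.0% of Tgfbr2 transcripts in control lung and 91.5%, 82.1%, 72.2%, 69.9% and 62.0% in tumour-bearing lung, so the groups did not overlap. In control muscle it made up 100%, 97.1% and 100%. In tumour-bearing muscle it made up 52.1%, 96.2% and 98.8%, with library 1 standing apart. Across genes whose length varied, 26.4% did not overlap between the lung groups (11.3% longer and 15.1% shorter in tumour-bearing lung), and 21.6% did not overlap in muscle (9.77% longer and 11.8% shorter). Of the 10 genes, 2 did not overlap in lung, Tgfbr2 and Tgfbr1 (5433 to 5522 bases in control and 5573 to 5716 in tumour-bearing lung), both longer. In muscle only Smad2 did not overlap, at 3639 to 4011 bases in control and 1846 to 3384 in tumour-bearing libraries. Tumour-bearing muscle 1 had the lowest lengths of Smad2, Smad4 and Tgfbr2 and also their highest CPM in muscle. Read coverage along transcripts and RNA quality can move these estimates, and their part was not tested.

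**Figure D4:**
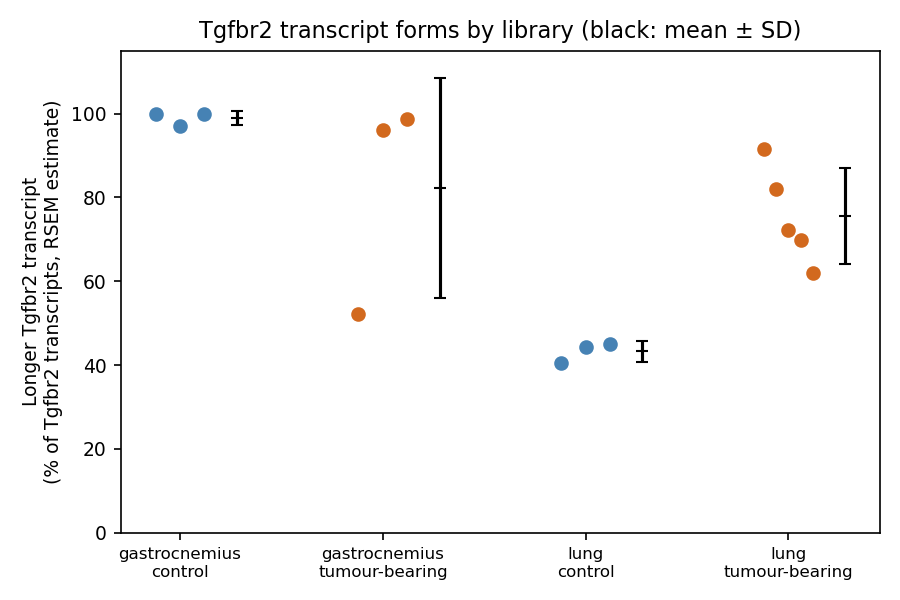
Points give the percent of Tgfbr2 transcripts assigned to the longer of its 2 forms in each library, from RSEM's weighted length, with mean ± SD in black. Control lung sits at 40.4% to 45.0% and tumour-bearing lung at 62.0% to 91.5%; in gastrocnemius 5 of 6 libraries are at 96.2% or more and tumour-bearing library 1 is at 52.1%.

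Genes that hold TGF-beta latent or release it were followed as a list of 20. In lung 4 rose and 10 fell, where 30.4% of all genes rose and 29.3% fell, with a median log2 change of -0.79 against 0.07 over all genes. Those that rose were Fbn2 (3.62, adjusted p = 0.00294), Ltbp3 (1.19, adjusted p = 0.00193), Furin (1.08, adjusted p = 0.0043), the protease that cleaves the precursor, and Itgav (0.90, adjusted p = 0.0455), a chain of activating integrins. Lrrc32, the surface anchor of latent TGF-beta known as GARP, fell 13-fold from 83.2 to 92.7 CPM in control to 4.55 to 8.39 CPM in tumour-bearing lung (SE 0.22, adjusted p = 3.52e-06). Ltbp4, a latent TGF-beta binding protein of elastic fibres, fell 22.3-fold and Emilin1, a matrix protein that restrains processing of the precursor, 4.48-fold. For Fbn2, tumour-bearing lung 2 stood far above the others, and without it the log2 change was 2.85; on the log2(TPM + 1) scale it was 0.68 and lost its call (adjusted p = 0.054). Itgav lost its call without any 1 control lung, or without tumour-bearing lung 3 or 5 (adjusted p from 0.0589 to 0.121). With all libraries kept, it was also lost with DESeq2's size factors (adjusted p = 0.0536), upper-quartile scaling (0.0628), limma-voom (0.0614) and a filter at a mean of 1 CPM (0.0524). In muscle 19 of the 20 were tested, and 4 fell and 0 rose, where 6.75% of all genes fell and 8.53% rose. Those that fell were Fbn1, fibrillin 1, at -3.07 (SE 0.26, adjusted p = 0.00407), Itgb6 at -3.94 (SE 0.85, adjusted p = 0.0216), Itgb8 at -2.38 (SE 0.65, adjusted p = 0.0425) and Emilin1 at -1.51 (SE 0.34, adjusted p = 0.0246). The list's median there was -0.81 against -0.03 over all genes. Without control muscle 1, 2 or 3, 1 gene passed each time. Calls over all genes also fell, from 1226 higher and 970 lower to 86 and 157, 51 and 90, and 33 and 73. Itgb6 and Emilin1 also lost their calls without tumour-bearing muscle 3, and Itgb8 without any 1 of the 6 libraries. The Itgb6 change was -5.83 without tumour-bearing muscle 2. Counts were low: Itgb6 had 14, 89 and 5 in tumour-bearing muscle 1, 2 and 3. Itgb8 had 17, 34 and 45 counts in control and 13, 7 and 3 in tumour-bearing muscle, the last being no more than a count of 0 allows. On the log2(TPM + 1) scale Itgb6, Itgb8 and Emilin1 did not pass (adjusted p = 0.0514, 0.388 and 0.206), and Itgb8 missed the threshold with limma-voom (0.092) and with the replicate block (0.0507) too. Fbn1 was at 43.2 to 52.8 CPM in control and 4.97 to 6.25 CPM in tumour-bearing muscle, where fibroblast markers fell as well; their part in the result was not tested.

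Of 32 receptor partners and regulators of Smads, 7 rose and 13 fell in lung, with a median log2 change of -0.19; these 20 of 32 are near the 59.7% of all genes that passed there. Smad9, a Smad of bone morphogenetic protein signalling, fell 62.7-fold, from 11.6 to 15.6 CPM in control to 0.159 to 0.248 CPM in tumour-bearing lung (SE 0.28, adjusted p = 1.46e-06). Acvrl1, the endothelial type I receptor ALK1, fell 47.8-fold (SE 0.28, adjusted p = 1.66e-06), and Smad6, an inhibitory Smad, 16.0-fold (SE 0.22, adjusted p = 2.74e-06). Endothelial markers fell in the same libraries, 8 of 8; their part in the result was not tested. In muscle 30 of the 32 were tested and 1 passed, where 15.3% of all genes did. Tgif1, a corepressor of Smads, rose 6.18-fold, from 3.99, 3.99 and 4.41 CPM to 43.6, 7.98 and 25.1 CPM (SE 0.53, adjusted p = 0.0185). It also rose in lung, 5.17-fold (SE 0.19, adjusted p = 1.72e-05). Its muscle call was lost without any 1 control (adjusted p from 0.0676 to 0.0922) and on the log2(TPM + 1) scale (0.0783). Calls over all genes also fell without any 1 control, from 1226 higher and 970 lower to 33 to 86 higher and 73 to 157 lower. Without tumour-bearing muscle 1 the log2 change of Tgif1 was 2.01 in place of 2.63. The next 2 by p in muscle were Skil at -0.78 (SE 0.28, adjusted p = 0.083) and Strap at 0.71 (SE 0.27, adjusted p = 0.0991). Without tumour-bearing muscle 2, 5 genes of the list passed, and without tumour-bearing muscle 3, 2. Over all genes those 2 runs gave 2447 higher and 2066 lower calls, and 650 and 479.

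Of 26 genes known to be induced by TGF-beta, 4 rose and 10 fell in lung, with a median log2 change of -0.86. These 14 of 26 are near the 59.7% of all genes that passed in lung, so the count is not in itself a result about these targets. Among those that rose, Fn1, fibronectin, was at 326, 334 and 332 CPM in control lung and at 1996, 2323, 1699, 1039 and 801 CPM in tumour-bearing lung. Every tumour-bearing library was above the controls, a rise of 4.75-fold (SE 0.37, adjusted p = 0.000787). Timp1, an inhibitor of metalloproteases, rose 13.1-fold (SE 0.63, adjusted p = 0.000902) and Bhlhe40, a transcription factor, 4.64-fold (SE 0.38, adjusted p = 0.00093). Timp3, Tgfb1i1 and Nox4 fell the most clearly by p: Timp3, another metalloprotease inhibitor, 9.86-fold (adjusted p = 2.36e-06), Tgfb1i1, an adaptor of focal adhesions, 8.89-fold (adjusted p = 7.91e-06) and Nox4, an oxidase of fibroblasts and muscle cells, 18.8-fold (adjusted p = 1.79e-05). The 3 collagen genes of the list did not pass in lung, with log2 differences of 0.66 for Col1a1, -0.40 for Col1a2 and -0.92 for Col3a1. The targets therefore moved in both directions in the libraries where Tgfbr2 and Tgfbr3 fell and Smad3 rose.

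In muscle 25 of these targets were tested, 3 rose and 5 fell, with a median of -0.30; of all genes there, 8.53% rose and 6.75% fell. Col1a1 fell from 107, 172 and 314 CPM to 2.82, 7.54 and 6.72 CPM (log2 change -5.12, SE 0.55, adjusted p = 0.00496). The others that fell were Col1a2 (-4.31, SE 0.57, adjusted p = 0.00673), Col3a1 (-4.00, SE 0.60, adjusted p = 0.0093), Postn, periostin (-3.27, SE 0.40, adjusted p = 0.00604) and Fn1 (-1.14, SE 0.29, adjusted p = 0.0353). Those that rose included Cdkn1a, the cell cycle inhibitor p21 (3.25, SE 0.67, adjusted p = 0.0194), and Junb, a subunit of AP-1 (2.88, SE 0.61, adjusted p = 0.0204). Collagens and Postn fell beside the fibroblast markers while none of the 10 core genes passed; the part of those cells in the result was not tested. Without control muscle 1 or 2, 4 of these targets passed, and 3 without control muscle 3. All of them were lower, so that every call of a rise was lost. Over all genes, 86 higher and 157 lower calls were left without control muscle 1, against 1226 and 970 with all libraries. Without control muscle 2 they were 51 and 90, and without control muscle 3 they were 33 and 73. Cdkn1a and Junb lost their calls without tumour-bearing muscle 3 as well (adjusted p = 0.0525 and 0.0542). Fn1 lost its call without any 1 control or tumour-bearing muscle 1 (0.0633 to 0.134). Col3a1 narrowly missed the threshold without control muscle 3 (0.0536), and was at -4.81 without tumour-bearing muscle 3. On the log2(TPM + 1) scale Postn, Fn1 and Junb did not pass (adjusted p = 0.072, 0.251 and 0.0685).

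The genes whose level moved most like a ligand, a receptor and the target were ranked by Pearson's r of log2 CPM over the 14 libraries, after each tissue's mean was taken off, among 7239 genes. Points share the 2 tumour contrasts and the libraries' depth, so r is a description. For Tgfb1 these were Fam102b (r = 0.860) and Xpo6 (0.857). For Tgfbr2 they were Arid1b (0.983), a subunit of the SWI/SNF chromatin remodeller, and Pfkfb3 (0.967), an enzyme that drives glycolysis. For Tgfbi they were Lsp1 (0.941), a leukocyte actin-binding protein, and Socs2 (0.823), an inhibitor of cytokine signalling. Arid1b fell by 0.82 and Pfkfb3 by 2.15 on the log2 scale in tumour-bearing lung (adjusted p = 0.000278 and 6.69e-05), and neither passed in muscle (adjusted p = 0.338 and 0.275).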

How the data were processed

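RNA was measured in 14 mouse libraries, 3 or 5 per group, built with the MGIEasy RNA Directional kit, which keeps strand, with a read length of 100 bases per the labels. The submitters' processing notes name Trim Galore, STAR 2.7.9a and RSEM 1.3.3; the sources used here do not give the genome build, annotation or strand setting. For each library the authors deposited RSEM expected counts, which need not be whole, and TPM. They also deposited a transcript length per gene, the mean over its forms weighted by their shares. Symbols matched 52083 of 55416 gene identifiers, and GENCODE M21 held 138302 of 142434 transcript identifiers. Members and gene lists were chosen with earlier results of these data known.

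Expected counts were rounded and tested in R 4.3.3 with edgeR 4.0.16 (TMM, filterByExpr, quasi-likelihood test, two-sided), each tissue on its own. Benjamini-Hochberg adjustment ran over all genes tested, with a threshold of 0.05. SE is the log2 change divided by the square root of F. CPM are relative to TMM-scaled totals of the tissue's own fit. The interaction used all 14 libraries, and the comparison of control tissues their 6. The script was tested on simulated data. Chi-square per degree of freedom between replicates was 21.3 to 481, so none was treated as a duplicate.

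The named genes are the 10 members, the 3 genes with the smallest p of each of 3 pathway lists in each tissue, all genes of a count of 5 or fewer, and the 2 most alike to Tgfb1, Tgfbr2 and Tgfbi among genes with a mean of at least 5 CPM in each tissue. The 10 marker lists and 2 quality lists were summed in TPM. In the list of induced targets 1 gene is counted but not reported here by name. Alternatives were DESeq2's size factors, upper-quartile scaling, DESeq2 1.42.0, limma-voom and limma on log2(TPM + 1) (limma 3.58.1), all libraries in 1 fit, no filter, a filter at a mean of 1 CPM, the replicate number as a block, and each library left out in turn.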

Additional observations from a re-analysis of the deposited data

Results flagged for a closer look

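The change with tumour differed between lung and gastrocnemius, by the interaction over all 14 libraries, for 5 of the 10 core genes: Tgfb2 (-1.82, log2 lung minus muscle), Tgfb3 (-1.33), Tgfbr2 (-2.40), Tgfbr3 (-5.04) and Smad3 (2.34). Of all genes tested, 35.6% differed in this way. The other pathway genes follow only where they passed, so their number says nothing of the lists. Those that anchor or activate the ligand differed as follows: Lrrc32 by -3.63, Ltbp4 by -3.19, Ltbp3 by 1.41, Itgav by 1.70, Itgb6 by 3.69, Fbn1 by 2.12 and Fbn2 by 8.10. Nrros, Itgb5, Thbs1 and Dcn of that list also passed, with a lower change in lung. Fbn2 had too few counts in muscle to be tested there, so its fitted difference is not a bound. The receptors and Smads Acvrl1 (-4.80), Smad6 (-4.37) and Smad9 (-7.11) had a lower change in lung than in muscle. Smad9, like Fbn2, had too few counts in muscle to be tested there. Of the same list, Eng, Bambi, Smad7, Ski, Smurf2, Nedd4l and Zfyve9 also passed with a lower change in lung. Pmepa1 and Tab1 passed with a higher one. Induced targets differed in both directions. Higher in lung were the changes of Col1a1 (5.76), Col1a2 (3.89), Col3a1 (3.08), Fn1 (3.40), Postn (2.12), Timp1 (4.33) and Bhlhe40 (2.73). Lower were those of Cdkn1a (-3.88), Junb (-3.01), Nox4 (-5.13), Tgfb1i1 (-1.94) and Timp3 (-3.87). Zeb1, Lox, Sphk1, Angptl4 and Mmp2 of the list had a lower change in lung as well. A higher change than in muscle need not be a rise in lung. The collagens and Itgb6 did not pass in lung, and Postn (-1.17) and Fbn1 (-0.95) fell there. Fn1, Timp1, Bhlhe40, Ltbp3, Itgav and Fbn2 rose in lung. Of the genes with a lower change, Cdkn1a and Junb did not pass in lung.

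A single tumour-bearing lung library lay far from the other 4 for 2 of the genes named here: Acvrl1 was at 6.77 CPM in library 2 with the others at 13.7 to 15.7, and Fbn2 at 22.1 CPM in library 2 with the others at 2.73 to 7.24. Chance flags about 1 in 20 groups, and 27 groups were examined in this way.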

How the results depend on the processing

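Of 1193 alternative values for 72 gene-level results, 1079 kept their direction and side of the threshold, 74 lost a call, 15 gained one and 25 turned in direction. In muscle the count of core genes past the threshold went from 0 to 2 with DESeq2 or no filter and 1 with all libraries in 1 fit. Latency genes in muscle went from 4 to 9 with DESeq2, 10 with no filter, 10 with all libraries in 1 fit and 1 on log2(TPM + 1). Smad regulators in muscle went from 1 to 3 with no filter, 2 with all libraries in 1 fit and 0 on log2(TPM + 1), and induced targets from 8 to 4 on log2(TPM + 1). Calls over all genes in muscle moved too, from 1226 higher and 970 lower of 14373 to 2093 and 1564 with DESeq2. They were 2253 and 1778 of 26170 with no filter and 1881 and 1578 of 19834 with all libraries in 1 fit. On log2(TPM + 1) they were 157 and 258 of 14373. Each library left out in turn gave 0 to 4 core genes in muscle, 5 to 9 in lung, 5 to 6 for the interaction and 9 to 10 for the control tissues. For latency genes it gave 1 to 6 in muscle and 12 to 16 in lung, for Smad regulators 0 to 5 and 15 to 20, and for induced targets 3 to 12 and 14 to 18. Over all genes in muscle the calls ran from 33 higher and 73 lower without control 3 to 2447 and 2066 without tumour-bearing 2. In lung they ran from 4526 and 4879 without control 2 to 6008 and 5666 without tumour-bearing 2.

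Same-numbered control and tumour-bearing libraries deviated together with r of 0.356, -0.046 and 0.366 in muscle and 0.0366, 0.0577 and -0.000832 in lung. Muscle pairs of unlike number reached at most 0.0727, and their lowest r was -0.405. In muscle the pairs numbered 1 and 3 thus lay above every pair of unlike number, and the pair numbered 2 did not. Lung pairs of unlike number lay between -0.112 and 0.0838, a range that holds the same-numbered values. The main tests did not pair libraries by number, and whether the numbers mark pairs in muscle was not tested. Whether lung and muscle libraries of the same number share a mouse is not stated in the labels and was not checked. The interaction treated all 14 libraries as independent. With the replicate block, 1 core gene (Smad4) passed in muscle, as did 8 latency genes and 2 Smad regulators. Over all genes in muscle the block gave 1627 higher and 1676 lower calls, against 1226 and 970 without it. With the block Tgfbi in muscle was at -0.05, Smad4 in lung had an adjusted p of 0.0792 and Tgfbr1 between control tissues one of 0.075.

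Values that turned in direction were mostly near 0. In muscle Tgfb3 was at 0.02 with DESeq2's size factors and with DESeq2, 0.00 with limma-voom, 0.11 on log2(TPM + 1), 0.03 with no filter, and from 0.02 to 0.06 without control 2 (0.03), control 3 (0.06), tumour-bearing 1 (0.06) or tumour-bearing 3 (0.02). Over the libraries left out, Tgfb3 ranged from -0.10 to 0.06, Tgfb2 from -0.14 (without tumour-bearing muscle 3) to 0.53 and Tgfbi from -0.54 (without the same library) to 0.44, and Tgfbi was at -0.09 with upper-quartile scaling and -0.07 with limma-voom. On log2(TPM + 1), lung Tgfb1 was at -0.04, Smad2 at -0.08 and Smad4 at -0.06, the interaction of Tgfb1 at -0.02 and of Tgfbr1 at -0.34, and control lung over control muscle at 1.39 for Tgfb2, 1.42 for Tgfb3, 2.23 for Tgfbr1 and 1.57 for Smad3. Over the libraries left out, the interaction of Smad2 ranged from -0.32 to 0.29 (without tumour-bearing muscle 1) and that of Tgfbi from -0.88 to 0.03 (without tumour-bearing muscle 3). The cause was not tested. Scaling also moved the split of all genes: in muscle from 1226 higher and 970 lower to 760 and 1079 with upper-quartile scaling and 157 and 258 on log2(TPM + 1), and in lung from 5862 and 5651 to 3594 and 7994 on log2(TPM + 1).

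Depth did not limit the core genes: the lowest level in any library was 3.58 CPM, for Tgfb2 in tumour-bearing lung 1, where 3 counts are worth 0.0491 CPM.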
